A study of Mus musculus with 17 samples.

Results

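Messenger RNA of the enzymes that make and clear prostaglandins and leukotrienes was followed in eosinophils of mouse bone marrow and esophagus. The set held 10 genes, chosen by name: Ptgs1, Ptgs2, Ptges, Hpgd, Hpgds, Alox5, Alox5ap, Alox15, Ltc4s and Lta4h. Probe sets of their own were found for 9 of the 10, among 22180 genes measured. Ptgs1, the constitutive cyclooxygenase, had no probe set under its name or identifier in the annotation used here and was not analysed here.

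Prostaglandins and leukotrienes are short-lived lipid signals cut from arachidonic acid after phospholipases release it from membranes. Cyclooxygenases turn arachidonic acid into prostaglandin H2, from which separate synthases make prostaglandin E2, prostaglandin D2 and other prostanoids. In the other branch, 5-lipoxygenase and its membrane partner form leukotriene A4, which becomes leukotriene B4 or the cysteinyl leukotrienes. Eosinophils are known as a major source of cysteinyl leukotrienes in allergic inflammation.

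All mice carried the CC10-IL13 transgene, in which the club cell promoter of the lung airway drives interleukin-13 once doxycycline (Dox) is given. They were either Pirb-/- or Pirb+/+ littermates, males and females, 6 to 8 weeks old. Pirb encodes an inhibitory receptor of myeloid cells. Marrow eosinophils came from both genotypes with Dox food for 2 weeks (3 wildtype and 3 knockout arrays) and without Dox (2 wildtype and 3 knockout arrays). Esophageal eosinophils came from both genotypes with Dox, with 3 arrays each. Cells were sorted as CD45+ SiglecF+ CCR3+ in both tissues, after collagenase digestion of the esophagus or passage of marrow through a needle, so tissue and preparation cannot be told apart. No label says whether arrays of a group came from separate animals or pools, so the p-values reflect the spread among these arrays and no more.

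Values are log2 intensities that the authors had centred for each probe set before deposit, so that 0 is taken as the median array and a value as the distance from it. The log base is not stated and was taken as log2, and brightness is lost, so neither an absent gene nor the order of 2 genes can be read. Differences between groups keep their size. Each is given as log2 ± standard error (SE) from 1 limma fit of all 17 arrays, with p adjusted over all 22180 genes (Benjamini-Hochberg) and a threshold of 0.05. The number of arrays, 2 or 3 a group, limits the precision.

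One array stood apart. Knockout marrow replicate 3 without Dox had a standard deviation (SD) of 0.811 over all probe sets, against 0.25 to 0.296 on the other marrow arrays and 0.504 to 0.592 on the esophageal arrays. It correlated at -0.027 on average with its own group, but at 0.247 with esophageal arrays. For the 9 enzyme genes, both values are given where leaving it out changed a call or moved a named difference by over 1.5 times. For all other named genes, and for counts of markers and pathway genes, only the fit with this array included is given. Without this array the genes called between tissues rose from 3366 to 8092 in wildtype and from 2336 to 4175 in knockouts. Calls of those other genes may therefore depend on it. Of the genes behind the gate and label, Ccr3 differed between tissues by 0.64 ± 0.56 in wildtype (adjusted p = 0.397), while the granule gene Epx was lower in the esophagus by -3.50 ± 0.41 (adjusted p = 1.87e-04). Prg2, which encodes major basic protein of the granule, was lower by -3.53 ± 0.35 (adjusted p = 5.27e-05). Siglecf, the other sorted marker, differed by 0.32 ± 0.16 in wildtype (adjusted p = 0.165). In knockouts Siglecf read 0.77, 1.26 and 1.32 in the esophagus, against 0.021, -0.25 and 0.15 in marrow with Dox. Knockout Ccr3 read 0.84, 1.04 and 0.94 in the esophagus, against 0.054, -0.054 and -0.23. Wildtype esophageal arrays read 0.33, 0.068 and 0.11 for Siglecf and 0.47, 0.48 and 0.46 for Ccr3, below every knockout esophageal array. Of 9 measured eosinophil markers, 3 were lower in wildtype esophagus, and 2 were higher and 4 lower in knockouts. Of all genes, 15.2% were called between tissues in wildtype (7.06% lower) and 10.5% in knockouts (4.5% higher and 6.04% lower). Between genotypes in the esophagus, 1 of the 9 passed, higher in knockouts, against 0.347% of all genes. There 7 of the 9 were above 0, with a median of 0.33, against -0.095 for all genes. Pirb differed between knockout and wildtype esophageal arrays by -0.28 ± 0.39, which missed the threshold (adjusted p = 0.707), and since where the probe set lies relative to the deletion is not known here, this checks nothing about the labels.

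Most of the 9 genes differed between tissues, and none passed the test between genotypes. In wildtype mice with Dox, 4 of the 9 enzyme genes were higher and 3 lower in esophageal than in marrow eosinophils. In knockouts 3 were higher and 2 lower. The shares called among all genes were 15.2% in wildtype (8.11% higher and 7.06% lower) and 10.5% in knockouts (4.5% higher and 6.04% lower). Ptgs2, Alox15 and Alox5 were higher in both genotypes, and Hpgd and Hpgds were lower in both. Alox5ap was higher and Lta4h lower in wildtype, with knockout differences that missed the threshold.

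**Figure D1:**
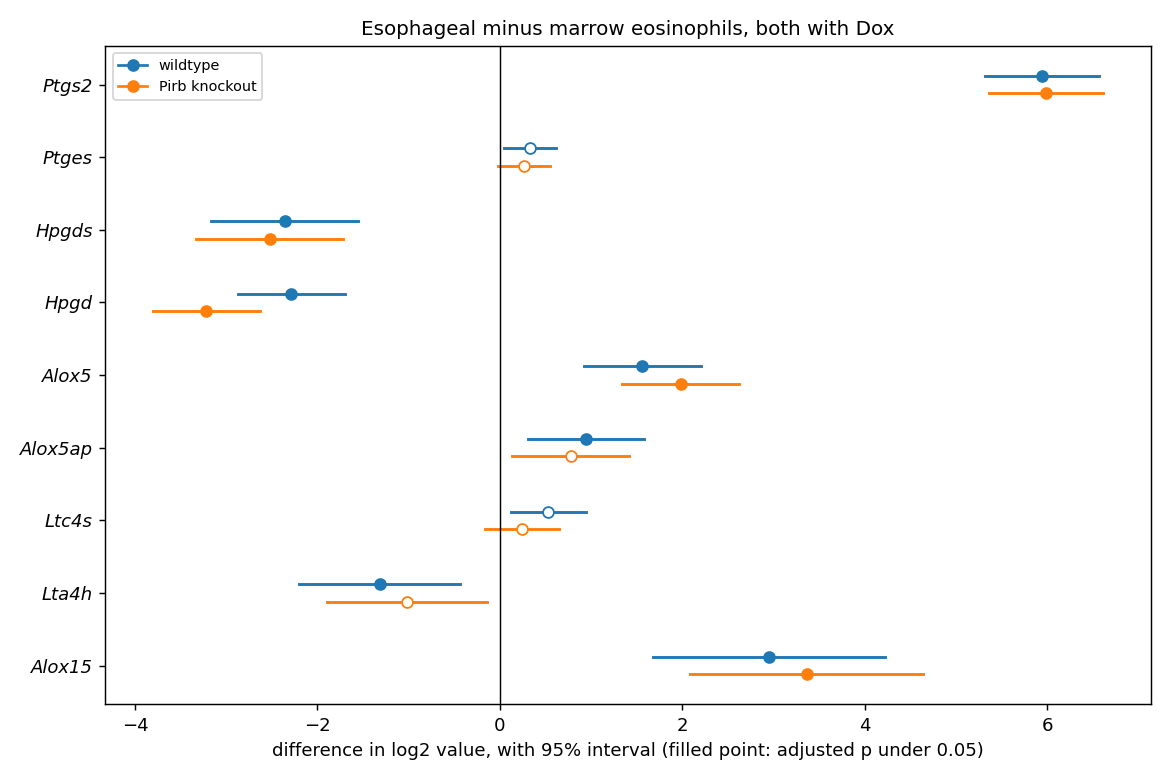
Esophageal minus marrow difference of each enzyme gene with Dox, on the log2 scale, in wildtype (blue) and knockout (orange) mice, with the 95% interval from the limma fit; filled points passed an adjusted p of 0.05. Ptgs2 lies at 5.94 and 5.98 and Alox15 at 2.95 and 3.36, while Hpgd and Hpgds lie far below 0 in both genotypes.

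Ptgs2, the inducible cyclooxygenase, had the largest range of the 9 genes, 6.34 over the 17 arrays, and a larger SD than 99.98% of all genes. The promoter window of its RefSeq entry (build GRCm38.p6, chr1:150099781-150100080, plus strand, 250 bases before to 50 after the start) is shown because no other member differed as much. Capitals mark a match to the C/EBP motif TTGCNNAA, at position -69 from the start, and to the cyclic AMP response element TGACGT, here read on the opposite strand at position 13.
Ptgs2: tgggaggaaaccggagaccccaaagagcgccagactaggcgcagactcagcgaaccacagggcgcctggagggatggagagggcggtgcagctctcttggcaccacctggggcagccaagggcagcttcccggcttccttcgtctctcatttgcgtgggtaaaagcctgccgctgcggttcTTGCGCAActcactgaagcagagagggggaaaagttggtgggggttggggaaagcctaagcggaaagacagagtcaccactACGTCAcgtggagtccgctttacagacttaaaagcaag
Both strands were searched, and among 32851 RefSeq windows of this length 10.8% held the first motif and 7.51% the second. A match describes letters and is not evidence of binding.

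In wildtype esophageal eosinophils Ptgs2 stood at 5.48, 4.69 and 5.32, and in knockout ones at 5.29, 5.30 and 5.18. In marrow with Dox the values were -0.67, -0.78 and -0.85 in wildtype and -0.50, -0.85 and -0.83 in knockouts. Without Dox they were 1.33 and 0.20 in wildtype and 0.47, -0.20 and -0.50 in knockouts. All 6 esophageal arrays were far above all 11 marrow arrays, and the lowest values were those of marrow with Dox. Wildtype esophageal arrays averaged 5.17 ± 0.42 (SD, n = 3), and knockout ones averaged 5.26 ± 0.066 (SD, n = 3). The tissue difference was 5.94 ± 0.29 in wildtype, a 61.2-fold difference (adjusted p = 6.32e-08), and 5.98 ± 0.29 in knockouts, 63.3-fold (adjusted p = 4.97e-08). In bulk RNA of sorted cells, more cells of a type and more RNA per cell cannot be told apart.

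The genes whose pattern was most like that of Ptgs2 over the 17 arrays were Clec4e, an innate lectin receptor (Pearson r = 0.993), Btg1 (0.988) and Thbs1, which encodes thrombospondin 1 (0.988). Clec4e was higher in the esophagus by 4.56 in wildtype and 5.22 in knockouts, and Thbs1 by 5.43 and 5.54. These correlations describe 17 arrays that fall into 2 tissues, and much of each is the tissue difference itself.

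Ptges, the inducible synthase of prostaglandin E2 downstream of Ptgs2, varied little. Its range over the 17 arrays was 0.67, and 40.56% of all genes had a smaller SD. Wildtype esophageal values were 0.0045, 0.41 and 0.19, against -0.14, -0.0045 and -0.24 in wildtype marrow with Dox. Knockout esophageal values were 0.15, 0.053 and 0.17, against -0.24, 0.037 and -0.23. The groups did not overlap within either genotype, but the gaps were small. Wildtype arrays differed between tissues by 0.33 ± 0.13 (adjusted p = 0.0980), and knockout arrays by 0.27 ± 0.13 (adjusted p = 0.253). Without the array that stood apart, the wildtype difference passed the threshold (adjusted p = 0.0309, with 0.0309 to 0.352 over 25 alternative settings).

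Hpgds, the hematopoietic synthase of prostaglandin D2, and Hpgd, the 15-hydroxyprostaglandin dehydrogenase that inactivates prostaglandin E2 and others, were both lower in the esophagus. Their RefSeq promoter windows are shown because both genes were low in the esophagus and high in marrow with Dox. Hpgd lies at chr8:56294302-56294601 on the plus strand. A match to the letters of the TATA box motif (TATAAA, 13.6% of windows) is in capitals at position 5, after the annotated start. The window of Hpgds is chr6:65144681-65144980 on the minus strand, with a C/EBP match in capitals at position -176.
Hpgd: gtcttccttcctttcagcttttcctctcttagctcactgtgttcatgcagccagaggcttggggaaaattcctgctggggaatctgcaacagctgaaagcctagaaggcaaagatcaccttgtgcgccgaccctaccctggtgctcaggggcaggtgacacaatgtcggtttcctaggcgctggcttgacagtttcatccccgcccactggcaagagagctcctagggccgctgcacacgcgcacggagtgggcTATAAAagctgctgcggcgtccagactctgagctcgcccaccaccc
Hpgds: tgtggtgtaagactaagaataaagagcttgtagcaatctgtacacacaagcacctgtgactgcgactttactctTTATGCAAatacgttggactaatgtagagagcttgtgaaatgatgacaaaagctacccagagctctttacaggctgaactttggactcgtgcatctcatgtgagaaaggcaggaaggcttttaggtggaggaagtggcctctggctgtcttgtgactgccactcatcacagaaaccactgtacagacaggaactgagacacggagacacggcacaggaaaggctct
Neither window shares a searched match with the other. Windows were found for 8 of the 10 members, and of the other motifs searched the STAT6 site TTCNNNNGAA (6.95% of windows) was matched by Ptges, while the AP-1 site TGANTCA (7.81%) was matched by none of the 8.

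Hpgd values in the esophagus were -0.37, -1.24 and -1.41 in wildtype and -1.62, -1.40 and -1.56 in knockouts. In marrow with Dox they were 1.22, 1.06 and 1.57 in wildtype and 1.89, 1.66 and 1.53 in knockouts. Every esophageal array was below every marrow array with Dox, and wildtype replicate 1 was the highest of the esophageal arrays. The tissue difference was -2.29 ± 0.27 in wildtype, 4.88-fold lower in the esophagus (adjusted p = 2.11e-04). In knockouts it was -3.22 ± 0.27, 9.3-fold lower (adjusted p = 8.76e-06). The larger fall in knockouts was tested as an interaction and missed the threshold: -0.93 ± 0.38, with a 95% interval from -1.76 to -0.10 and adjusted p = 0.962. Without wildtype esophageal replicate 1 it was -0.61.

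For Hpgds, esophageal values were -1.18, -0.79 and -0.80 in wildtype and -1.38, -0.55 and -1.59 in knockouts. Marrow arrays with Dox had 1.47, 1.59 and 1.25 in wildtype and 1.87, 1.61 and 0.56 in knockouts. Again no esophageal array reached any marrow array with Dox, and knockout marrow replicate 3 was the lowest of the latter. Hpgds was lower by -2.36 ± 0.37 in wildtype, 5.13-fold (adjusted p = 0.00164), and by -2.52 ± 0.37 in knockouts, 5.75-fold (adjusted p = 7.50e-04).

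**Figure D2:**
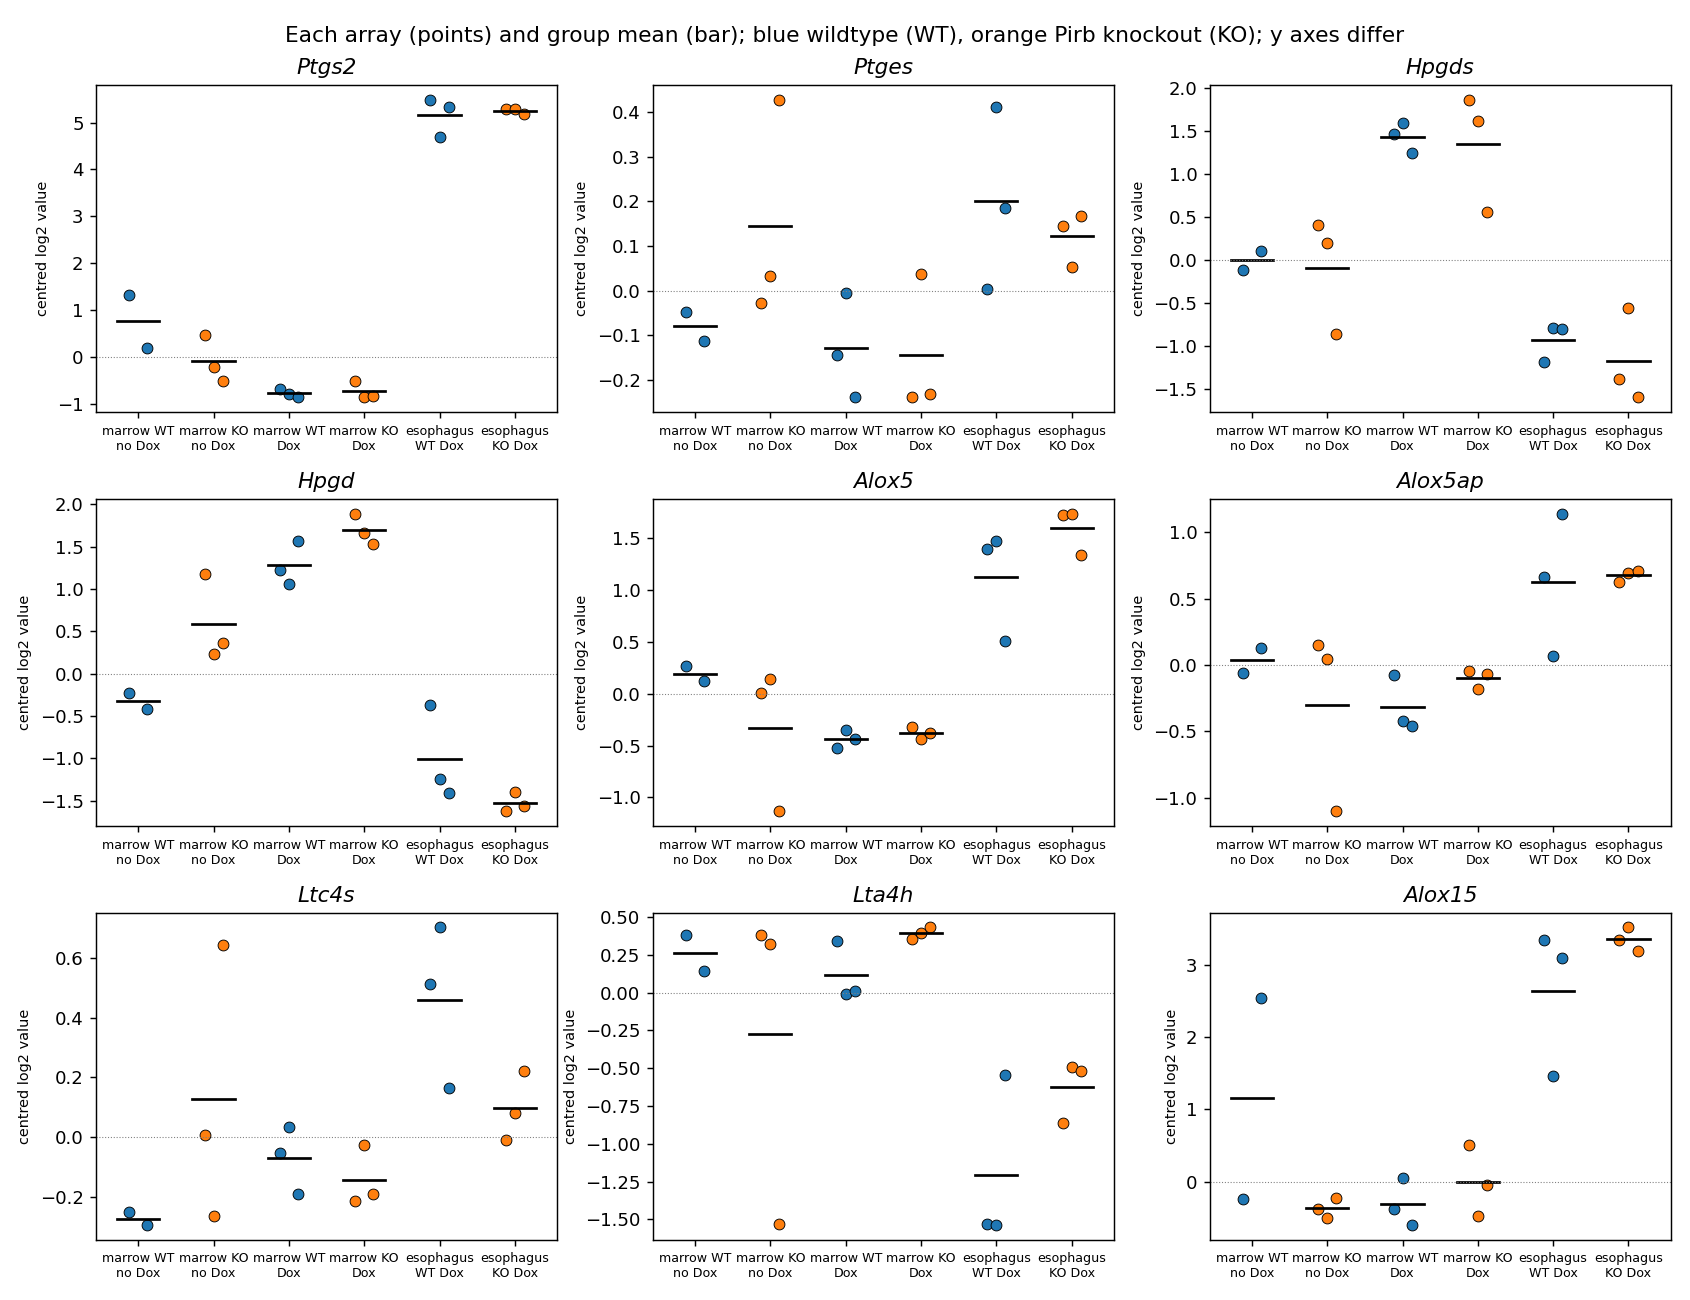
Centred log2 value of each of the 9 enzyme genes on every array (points) with the group mean (bar), by tissue, genotype (blue wildtype, orange knockout) and Dox; the y axes differ between panels. By group mean, Ptgs2, Alox15 and Alox5 sit highest in the esophagus and Hpgd and Hpgds lowest, single marrow arrays without Dox overlap them for Alox15, Hpgd and Hpgds, and knockout marrow replicate 3 without Dox lies at the bottom for Alox5, Alox5ap and near it for Lta4h.

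Alox5 encodes 5-lipoxygenase, which forms leukotriene A4. As the mean of its 2 probe sets, it read 1.39, 1.47 and 0.51 on the wildtype esophageal arrays and 1.72, 1.74 and 1.34 on the knockout ones. Marrow arrays with Dox lay between -0.52 and -0.35 in wildtype and between -0.44 and -0.33 in knockouts. All 6 esophageal values were above all 11 marrow values, with wildtype replicate 3 the lowest of the 6. The tissue difference was 1.56 ± 0.30 in wildtype, 2.95-fold (adjusted p = 0.00526), and 1.98 ± 0.30 in knockouts, 3.95-fold (adjusted p = 8.32e-04).

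The probe sets of Alox5 did not give the same picture on every array. Probe set 17462128 read 1.36, 1.85 and -0.49 on the wildtype esophageal arrays, so that replicate 3 fell among marrow values. Probe set 17470031 read 1.43, 1.09 and 1.51 there. For Alox5 alone, the wildtype difference was 1.54 with the first probe set (adjusted p = 0.0568) and 1.58 with the second (adjusted p = 0.00187). Of these, the first lost the call in wildtype, and both kept it in knockouts. Over 28 alternative settings the wildtype adjusted p of Alox5 ran from 1.86e-04 to 0.0574.

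Alox5ap encodes the 5-lipoxygenase-activating protein, which presents arachidonic acid to Alox5. Its esophageal values, the mean of 2 probe sets, were 0.66, 0.065 and 1.14 in wildtype and 0.63, 0.69 and 0.71 in knockouts. In marrow with Dox they were -0.077, -0.42 and -0.46 in wildtype and -0.049, -0.18 and -0.069 in knockouts. With Dox the tissues did not overlap in this mean, but wildtype esophageal replicate 2 was below 2 marrow arrays without Dox, at 0.13 and 0.15. The difference was 0.94 ± 0.30 in wildtype, 1.92-fold (adjusted p = 0.0483), and 0.77 ± 0.30 in knockouts (adjusted p = 0.128). Without the array that stood apart, both passed, with adjusted p = 0.00498 in wildtype and 0.0195 in knockouts. With its probe set 17444961 alone, Alox5ap missed the threshold in wildtype at 1.08 (adjusted p = 0.0911), and with 17455498 alone it passed at 0.80 (adjusted p = 0.0124). On 17444961 the tissues overlapped: wildtype esophageal replicate 2 read -0.092, and wildtype marrow replicate 1 with Dox read 0.0043. The wildtype call of Alox5ap was a narrow one, lost under 18 of 28 alternative settings, over which the adjusted p ran from 0.00142 to 0.158.

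Ltc4s, which joins leukotriene A4 to glutathione to make leukotriene C4, differed little. Esophageal values were 0.51, 0.70 and 0.16 in wildtype and -0.0081, 0.083 and 0.22 in knockouts. Marrow arrays with Dox had -0.052, 0.035 and -0.19 in wildtype and -0.21, -0.025 and -0.19 in knockouts. Each genotype's esophageal arrays were above its own marrow arrays with Dox, by a narrow margin in knockouts. Knockout marrow without Dox overlapped the esophageal arrays, with values of 0.0081, -0.26 and 0.64, the last on the array that stood apart. Between tissues Ltc4s differed by 0.53 ± 0.19 in wildtype mice (adjusted p = 0.0727), against 0.24 ± 0.19 in knockouts (adjusted p = 0.4996). It passed in wildtype without the array that stood apart (adjusted p = 0.00870, with 0.00870 to 0.256 over 26 settings).

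Lta4h, the hydrolase that turns leukotriene A4 into leukotriene B4, was the one leukotriene gene among the 9 with lower values in the esophagus. Wildtype esophageal arrays read -1.53, -1.54 and -0.55, and knockout ones -0.86, -0.49 and -0.52. Marrow with Dox read 0.34, -0.011 and 0.011 in wildtype and 0.35, 0.39 and 0.43 in knockouts. No esophageal array reached a marrow array with Dox, and the wildtype esophageal arrays split, with replicate 3 beside the knockouts. The difference was -1.32 ± 0.41 in wildtype, 2.49-fold lower (adjusted p = 0.0458), and -1.02 ± 0.41 in knockouts (adjusted p = 0.147). Without the array that stood apart, which itself read -1.53, both passed (adjusted p = 0.00125 and 0.00695). The wildtype call was lost under 16 of 26 alternative settings, with an adjusted p between 0.00125 and 0.161.

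Alox15 encodes the leukocyte 12/15-lipoxygenase, known for hydroperoxy fatty acids and for steps toward lipoxins, and as a gene that interleukin-4 and interleukin-13 raise in macrophages. On the esophageal arrays it read 3.35, 1.47 and 3.10 in wildtype and 3.35, 3.52 and 3.20 in knockouts. Marrow arrays with Dox read -0.37, 0.047 and -0.60 in wildtype and 0.51, -0.48 and -0.047 in knockouts. Without Dox, wildtype marrow read -0.24 on replicate 1 and 2.55 on replicate 3, and knockout marrow read -0.37, -0.50 and -0.23. Wildtype marrow replicate 3 without Dox thus stood among the esophageal values, above wildtype esophageal replicate 2, while the other 10 marrow arrays lay between -0.60 and 0.51.

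The tissue difference of Alox15 was 2.95 ± 0.59 in wildtype, 7.72-fold (adjusted p = 0.00697), and 3.36 ± 0.59 in knockouts, 10.3-fold (adjusted p = 0.00248). After quantile normalization between arrays Alox15 missed the threshold in both genotypes, at 2.57 in wildtype (adjusted p = 0.0678) and 2.39 in knockouts (adjusted p = 0.0760). It kept both calls under the other 25 settings. The genes most like Alox15 over the 17 arrays were Pde3b, a cyclic nucleotide phosphodiesterase (r = 0.956), Plxnc1, a plexin (0.946), and Fas, a death receptor (0.944). Their tissue differences in wildtype were 3.26, 1.71 and 2.50.

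With both genotypes averaged, a contrast chosen after seeing the data, all 9 genes passed between tissues, 6 higher and 3 lower. The share of all genes called in that contrast was 29.9%, with 17.7% higher and 12.2% lower. Beside the 7 genes already named, Ptges (0.30 ± 0.093, adjusted p = 0.0304) and Ltc4s (0.39 ± 0.13, adjusted p = 0.0460) passed there. Ptges lost that call under 8 of 25 other settings and Ltc4s under 17 of 26.

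Genotype was the comparison named in the title of the series. None of the 9 genes passed between knockout and wildtype eosinophils in the esophagus with Dox, where 0.347% of all genes did by limma. No member had an unadjusted p under 0.05 there, against 3251 of the 22180 genes. The largest esophageal differences were those of Alox15, 0.72 ± 0.59 (95% interval -0.56 to 1.99, adjusted p = 0.542), Lta4h, 0.58 ± 0.41 (-0.30 to 1.46, adjusted p = 0.484), and Hpgd, -0.52 ± 0.27 (-1.11 to 0.067, adjusted p = 0.376). Each moved with 1 wildtype array left out. Alox15 shrank to 0.13 without replicate 2 and Hpgd to -0.20 without replicate 1, while Lta4h grew to 0.91 without replicate 3. Ptgs2 differed by 0.087 ± 0.29, with an interval from -0.54 to 0.71.

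The wildtype esophageal arrays varied more than the knockout ones for several members. The SD of Alox15 was 1.02 in wildtype and 0.16 in knockouts, that of Alox5ap 0.54 and 0.042, and that of Hpgd 0.56 and 0.11. For Hpgds the order was the other way, 0.23 in wildtype and 0.55 in knockouts. The differences in spread were not tested.

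**Figure D3:**
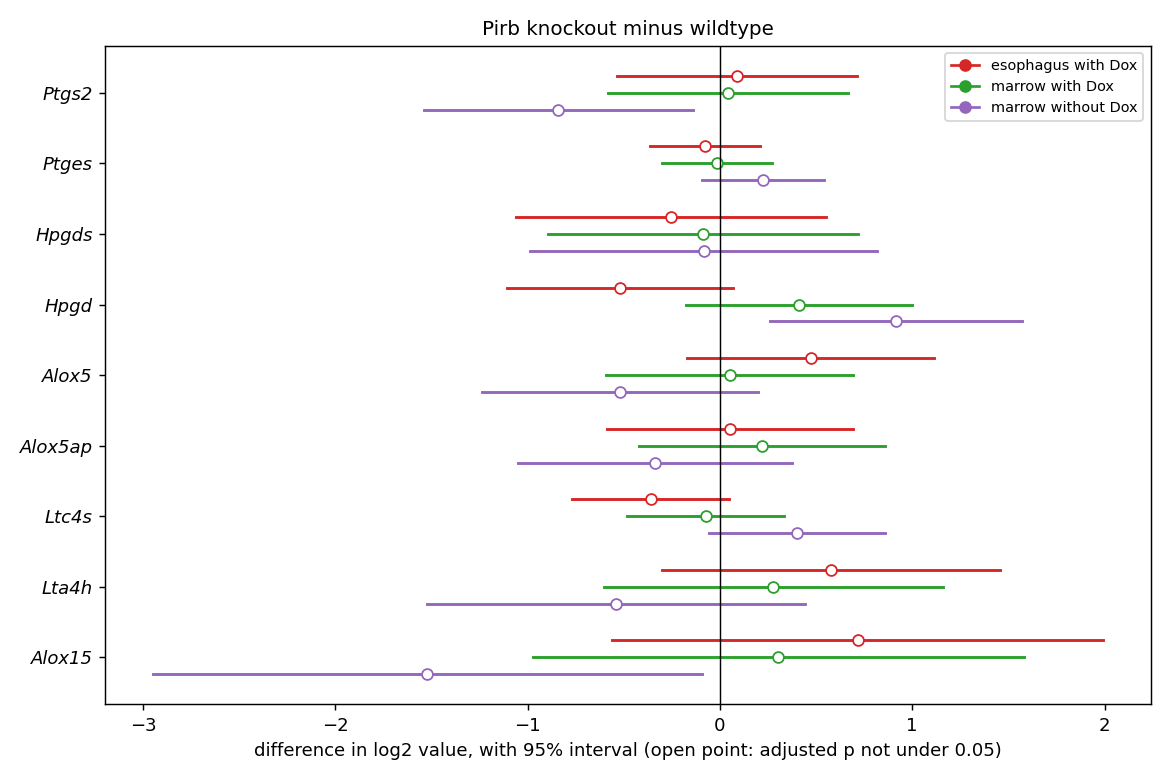
Knockout minus wildtype difference of each enzyme gene on the log2 scale with the 95% interval from the limma fit, in esophagus with Dox (red), marrow with Dox (green) and marrow without Dox (purple). All points are open, since none passed an adjusted p of 0.05; the intervals of Ptgs2, Hpgd and Alox15 in marrow without Dox lie on one side of 0.

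Marrow eosinophils of the genotypes, both with Dox, did not differ in any gene past the threshold (0% of all genes by limma, 407 with an unadjusted p under 0.05, none of them a member). The member differences ranged from -0.089 ± 0.37 for Hpgds to 0.41 ± 0.27 for Hpgd. In marrow without Dox again no gene passed (0%), with 1809 genes under an unadjusted p of 0.05. Among them were 3 members: Hpgd, 0.91 ± 0.30, Ptgs2, -0.84 ± 0.32, and Alox15, -1.52 ± 0.66, each with adjusted p = 0.546. The Hpgd values there were -0.23 and -0.42 in wildtype and 1.18, 0.23 and 0.36 in knockouts, which did not overlap. The Alox15 difference rested on wildtype replicate 3, whose value was 2.55, and was -0.13 without it. That of Ptgs2 was -0.28 without wildtype replicate 1 and -1.40 without replicate 3. Without the knockout array that stood apart, the Hpgd difference was 1.03 and that of Ptgs2 -0.63 (adjusted p = 0.999834 for both, with 0.211 as the lowest value of either gene over 26 settings).

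Dox was compared in marrow alone. In wildtype marrow none of the 9 genes passed, as 0.0225% of all genes did by limma. Under an unadjusted p of 0.05 lay 957 genes, 4 of them members. Hpgd differed by 1.61 ± 0.30 (adjusted p = 0.142), Hpgds by 1.44 ± 0.42 (adjusted p = 0.616), Ptgs2 by -1.53 ± 0.32 (adjusted p = 0.229) and Alox15 by -1.46 ± 0.66 (adjusted p = 0.999909). The last 2 depended on single arrays without Dox, Alox15 more than Ptgs2. Without wildtype replicate 1, Ptgs2 was at -0.97, and the remaining array, at 0.20, stayed above the wildtype arrays with Dox (-0.85 to -0.67). Alox15 was at -0.067 without wildtype replicate 3 and at -2.86 without replicate 1. In knockout marrow none passed either, with 0.0225% of all genes called and 4 members among the 6053 genes under an unadjusted p of 0.05. Before any array was left out, Hpgd differed by 1.10 ± 0.27 (adjusted p = 0.142), Hpgds by 1.43 ± 0.37 (adjusted p = 0.146), Ptgs2 by -0.65 ± 0.29 (adjusted p = 0.177) and Ptges by -0.29 ± 0.13 (adjusted p = 0.182). Without the array that stood apart, Ptges was at -0.15 (adjusted p = 0.680), Hpgds at 1.04 (adjusted p = 0.412), Hpgd at 0.99 (adjusted p = 0.396) and Ptgs2 at -0.87 (adjusted p = 0.427). Ptgs2 was at -0.38 without knockout replicate 1 without Dox.

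Averaged over the genotypes, a contrast also chosen after seeing the data, Hpgd rose with Dox by 1.35 ± 0.20, 2.56-fold (adjusted p = 0.0172). It was the sole member called there, against 0.234% of all genes. Without the array that stood apart the rise was 1.30 (adjusted p = 0.0308). Hpgd arrays with Dox, between 1.06 and 1.89, overlapped the knockout array at 1.18 without Dox. The call ended with either of 2 arrays left out: without wildtype marrow replicate 3 without Dox, Hpgd was at 1.31 (adjusted p = 0.0833), and without knockout marrow replicate 1 with Dox, at 1.31 (adjusted p = 0.0532). Fitting only the marrow groups, or adding the Y-linked genes' mean as a covariate, ended it too. The adjusted p of Hpgd ran from 7.89e-04 to 0.0833 over 26 settings.

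Hpgds differed by 1.43 ± 0.28 in the same averaged contrast (adjusted p = 0.0584), and Ptgs2 by -1.09 ± 0.22 (adjusted p = 0.0594). All 6 Hpgds values with Dox were above all 5 without it, the lowest with Dox being 0.56 and the highest without 0.41. All 6 Ptgs2 values with Dox were below all 5 without it, though by a very small margin: knockout replicate 1 with Dox and the lowest array without Dox, the one that stood apart, both rounded to -0.50. Without the array that stood apart, Ptgs2 passed (-1.20, adjusted p = 0.0481) and Hpgds did not (1.24, adjusted p = 0.0729). After quantile normalization Ptgs2 (-2.57, adjusted p = 0.00207), Hpgds (1.69, adjusted p = 0.0123) and Alox5 (-1.11, adjusted p = 0.00428) passed beside Hpgd. Over 26 alternative settings the adjusted p ran from 0.00207 to 0.145 for Ptgs2 and from 0.0120 to 0.194 for Hpgds.

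Neither difference of differences passed for any member. For genotype by tissue 0.00451% of all genes passed by limma, and of 1099 genes under an unadjusted p of 0.05 Hpgd was the sole member. For genotype by Dox in marrow 0% passed, with 1391 genes and no member under that p; the value of Alox15, 1.83 ± 0.89 (adjusted p = 0.663), fell to 0.43 without wildtype marrow replicate 3 without Dox and was 3.22 without replicate 1.

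The other genes of these pathways were counted by role, between tissues. The shares of all genes called there were 15.2% in wildtype and 10.5% in knockouts. Of 24 measured genes for phospholipases and arachidonate supply, 4 were higher and none lower in wildtype esophagus, and 6 higher and 1 lower in knockouts; their median was 0.28 in wildtype, against 0.14 for all genes, and 0.12 in knockouts, against 0.060. Pla2g7, a lipase that hydrolyses platelet-activating factor and oxidised phospholipids, was higher by 2.39 ± 0.27 in wildtype (adjusted p = 1.63e-04) and 3.42 ± 0.27 in knockouts (adjusted p = 5.93e-06). Lpcat2, which makes platelet-activating factor, was higher by 1.15 ± 0.14 and 1.82 ± 0.14. Acsl4, which activates arachidonic acid for storage, passed in knockouts (1.85 ± 0.32, adjusted p = 0.00213), and Lpcat1, a lysophospholipid acyltransferase, was lower there (-1.18 ± 0.26, adjusted p = 0.00951). Pla2g10, a secreted phospholipase, was higher in wildtype by 0.50 ± 0.072 (adjusted p = 8.69e-04).

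Of 13 measured genes for other prostanoid synthases and clearance, none was higher, and 4 were lower in wildtype and 3 in knockouts, with a median of -0.18 in wildtype (0.14 for all genes) and 0.023 in knockouts (0.060 for all genes), where 7 of the 13 were above 0. Ptgr1, a reductase that inactivates prostaglandins and leukotriene B4, was lower by -3.16 ± 0.64 in wildtype (adjusted p = 0.00736) and -3.58 ± 0.64 in knockouts (adjusted p = 0.00279). Prxl2b, a prostamide and prostaglandin F synthase, was lower by -1.67 ± 0.25 and -1.68 ± 0.25. Ptgr2, another prostaglandin reductase, was lower in wildtype (-1.53 ± 0.29, adjusted p = 0.00498), and the exporter Abcc4 was lower in knockouts (-1.45 ± 0.19, adjusted p = 3.16e-04).

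Of 16 other lipoxygenase and leukotriene genes, 2 were higher and 1 lower in wildtype, and 1 higher and 1 lower in knockouts. Cyp4f18, which oxidises leukotriene B4, was higher by 2.57 ± 0.29 and 2.81 ± 0.29. Mgst2, a membrane glutathione transferase that can also make leukotriene C4, was lower by -2.52 ± 0.48 and -2.90 ± 0.48. Gpx4, which reduces lipid hydroperoxides, was higher in wildtype by 0.77 ± 0.16 (adjusted p = 0.00802).

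Receptor genes were counted in the same way, against the same shares of all genes. Of 8 prostanoid receptor genes, 1 was lower in wildtype and 2 in knockouts: Pparg, a nuclear receptor bound by prostaglandin D2 products, was lower by -2.26 ± 0.38 in wildtype (adjusted p = 0.00250) and -2.02 ± 0.38 in knockouts (adjusted p = 0.00379), and Ptger2, a prostaglandin E2 receptor, was lower in knockouts by -0.56 ± 0.15 (adjusted p = 0.0261). Of 8 leukotriene and lipoxin receptor genes, 1 passed: Cysltr2, a cysteinyl leukotriene receptor, was higher in wildtype by 0.32 ± 0.084 (adjusted p = 0.0260). No gene of these 5 lists passed between genotypes or with Dox.

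**Figure D4:**
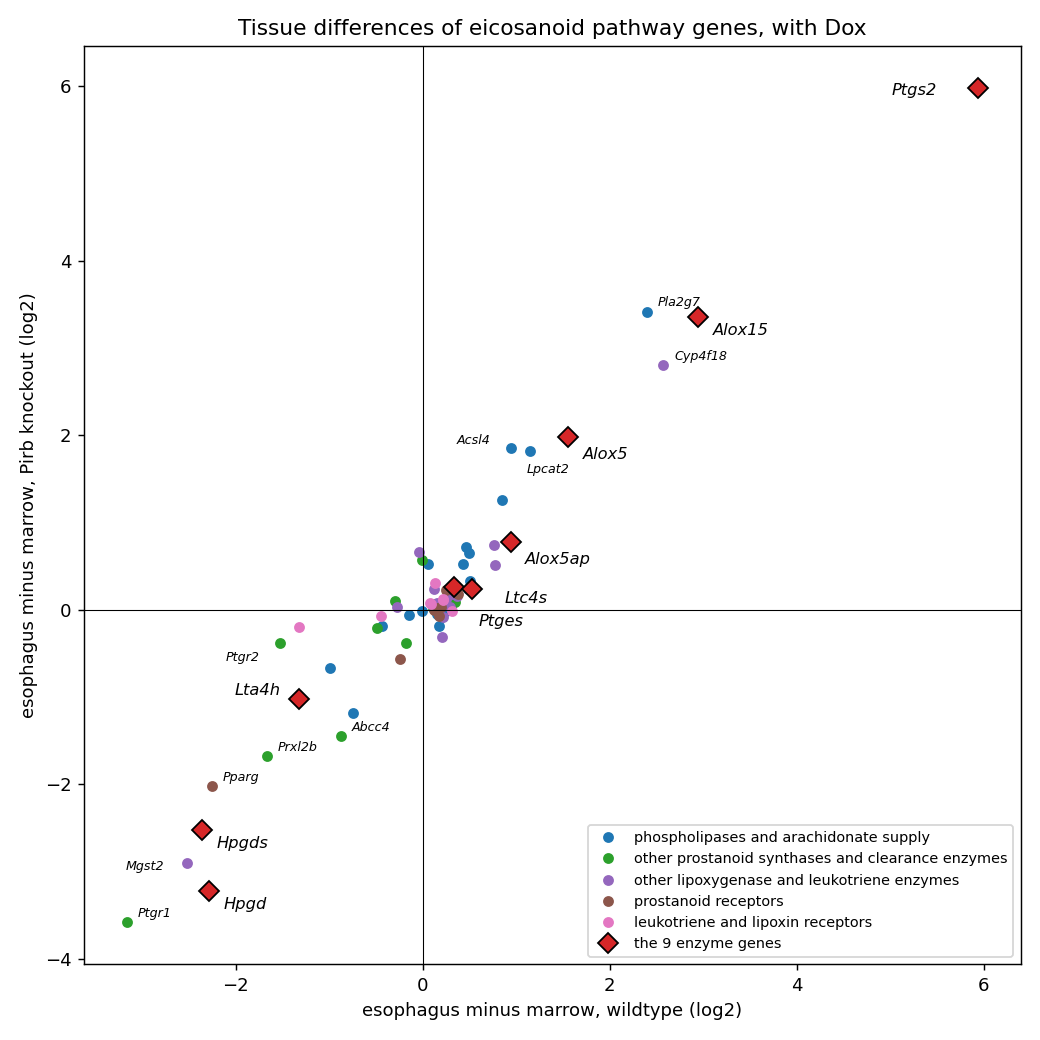
Esophageal minus marrow difference with Dox in wildtype (x axis) and knockout mice (y axis), on the log2 scale, for the 9 enzyme genes (red diamonds) and the genes of 5 eicosanoid lists (coloured points), with named labels for the larger differences. Supply genes such as Pla2g7 and Lpcat2 lie up and right, and the clearance genes Ptgr1 and Hpgd lie down and left.

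Markers of other cells moved with some of these differences. Their counts stand beside 15.2% of all genes called between tissues in wildtype and 10.5% in knockouts. Of 12 neutrophil markers, 8 were lower and 1 higher in wildtype esophagus, and 9 lower and 1 higher in knockouts; their mean over genes lay between -3.34 and -2.39 on the esophageal arrays and between -0.051 and 0.51 on 10 of the 11 marrow arrays, with -1.25 on the array that stood apart. Lta4h, Hpgd and Hpgds were low on the same esophageal arrays. Of 10 mast cell and basophil markers 4 were lower in each genotype, of 5 dendritic cell markers 2 were higher in each, and of 8 fibroblast and endothelial markers 1 was higher in wildtype and 3 in knockouts. Of 11 epithelial markers 1 was lower in wildtype and 1 higher in knockouts, of 7 lymphocyte markers 1 was lower in each, and of 4 platelet markers 1 was higher in knockouts. The part of these cells in the tissue differences of the 9 genes was not tested.

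Macrophage markers moved with Hpgd and Hpgds in part, and single markers went different ways. Of 14 measured macrophage and monocyte markers, 2 were higher and 2 lower in wildtype esophagus, and 2 higher and 8 lower in knockouts. The shares of all genes called there were 15.2% and 10.5%. In the averaged Dox contrast in marrow 1 of the 14 passed, against 0.234% of all genes. In that contrast 12 of the 14 markers were above 0, and their median was 0.74, against -0.066 for all genes. Their mean over genes was -0.31 to -0.25 in wildtype marrow without Dox, -0.98 to 0.15 in knockout marrow without Dox, 0.28 to 0.35 in wildtype and 0.22 to 0.54 in knockout marrow with Dox, and -0.45 to -0.10 on the esophageal arrays. The lowest mean, -0.98, was that of the array that stood apart, where Hpgd read 0.36 and Hpgds -0.86. On the esophageal arrays Ly6c2 lay between -4.86 and -2.36, while Adgre1 lay between 1.19 and 1.90. The genes most like Hpgd over the 17 arrays were Cd163, a scavenger receptor of macrophages (r = 0.949), Axl, a receptor that helps phagocytes take up dying cells (0.947), and Gtf3c3, a transcription factor subunit (0.928). Their tissue differences were -1.70, -1.85 and -0.84 in wildtype, so part of each correlation is the tissue difference itself. The part of macrophage RNA in the Hpgd and Hpgds results was not tested, and since the values are centred, none of the markers can be read as absent.

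**Figure D5:**
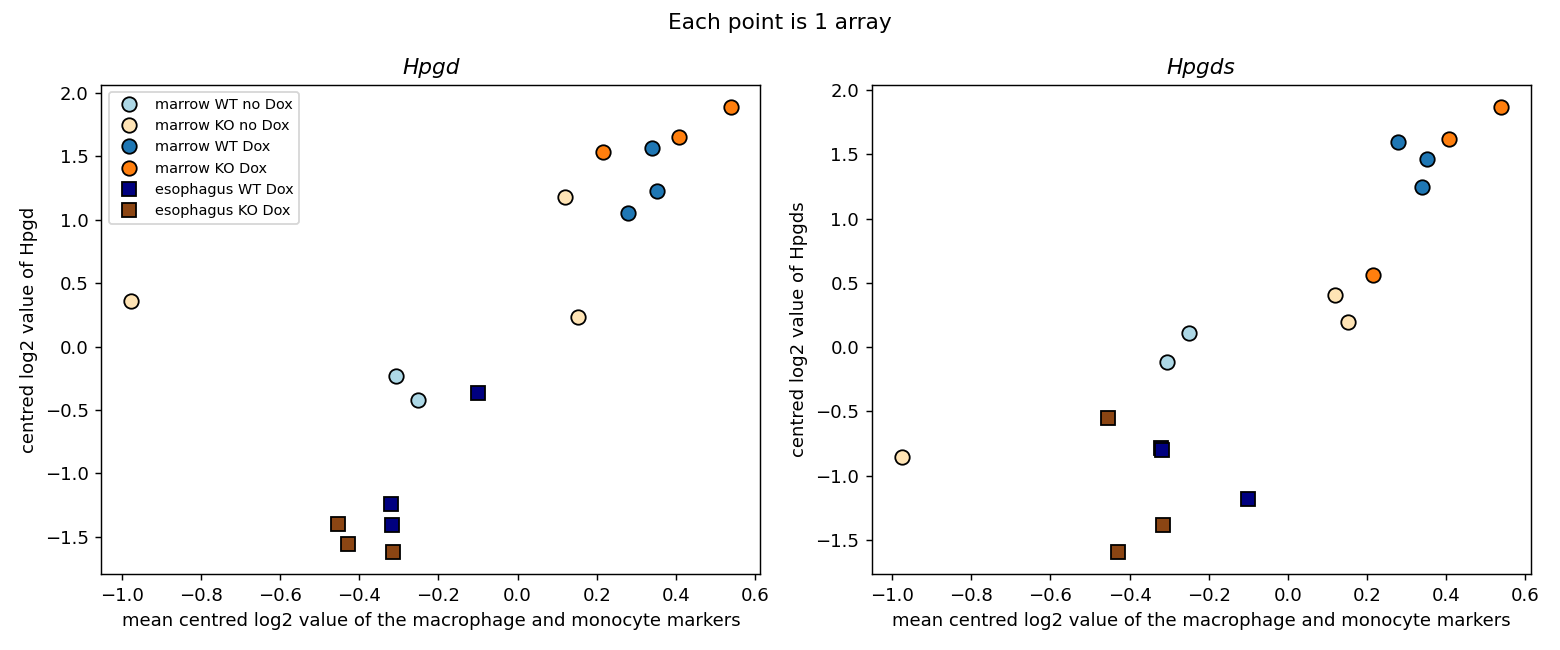
Centred log2 value of Hpgd (left) and Hpgds (right) against the mean centred log2 value of 14 macrophage and monocyte markers, 1 point per array, coloured by group (circles marrow, squares esophagus). Marrow arrays with Dox lie at the upper right and esophageal arrays at the lower left; knockout marrow replicate 3 without Dox lies at the far left.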

How the data were processed

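RNA of sorted eosinophils was amplified, labelled with biotin and hybridised to 17 Affymetrix arrays, 1 channel each. The authors used Affymetrix Expression Console, per the submitters' processing notes, with no version given. The deposited table holds log2 values (base not stated, taken as 2) for 33793 probe sets. In 97.08% of them a neighbouring pair of the sorted values was equal and opposite (tolerance 2e-05), so that 0 lay midway between them. The place of that pair in the order was not checked. A centre at the median of 18 arrays was therefore assumed.

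Probe sets with 1 gene symbol (23521; 1814 had several and 8458 none) gave 22180 genes, with names updated through Entrez identifiers and RefSeq GRCm38.p6 (23328 matched). The probe sets of 1082 genes were averaged. Groups came from the sample titles.

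Group means of 6 groups were fitted in limma 3.58.1 (R 4.3.3) with eBayes, two-sided, Benjamini-Hochberg adjustment and a threshold of 0.05. The steps were tested on simulated data. Members and lists were chosen with earlier results of these data known. All 10 members are named, with up to 3 passing genes per direction and pathway list, the 3 genes most correlated with each of the 3 members of largest range, and Siglecf, Ccr3, Epx, Prg2 and Pirb. Alternatives were quantile normalization, median centring, fitting the compared groups alone, a replicate block, array weights, robust eBayes, the genes of larger SD, the lowest-numbered probe set, a Y-linked covariate and leaving out each array. A filter on brightness could not be applied to centred values. No arrays of a group were duplicates.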

Additional observations from a re-analysis of the deposited data

How the results depend on the processing

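No difference of the 9 genes reversed a call under any setting. Between tissues, Ptgs2, Hpgd and Hpgds kept their calls in both genotypes under all 26 settings each: Ptgs2 from 5.63 to 6.17 in wildtype and 5.73 to 6.10 in knockouts, Hpgd from -2.61 to -2.09 and -3.32 to -3.12, and Hpgds from -2.46 to -2.15 and -2.92 to -2.26. The number of members called between tissues in wildtype, 7, ran from 5 to 9, over settings and with 1 array left out. All 9 were called with array weights, where 8210 of the 22180 genes passed, and without the array that stood apart, where 8092 passed. The unchanged fit called 3366. In knockouts, 5 became 8 with array weights, where 6117 genes passed, against 2336 in the unchanged fit. With 1 array left out the knockout count ran from 5 to 7, with 4175 genes called where it was 7.

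For Dox in marrow, in wildtype the count of 0 became 3 after quantile normalization and 2 with array weights, and in knockouts 0 became 1 and 4. Of all genes, 126 and 55 passed under those settings in wildtype and 233 and 3331 in knockouts, against 5 in each unchanged fit. In knockouts the member count was 0 to 1 with 1 array left out. The 1 was Hpgd without knockout replicate 1 without Dox, where 346 genes passed. Averaged over genotypes, the count of 1 became 4 after quantile normalization, 0 with only the marrow groups, 4 with array weights, 3 with the genes of larger SD, 0 with the Y-linked covariate and 0 to 2 with 1 array left out. Of all genes, 463 passed after quantile normalization, 8 with only the marrow groups and 1519 with array weights, against 52 in the unchanged fit. With the genes of larger SD 64 of 11090 passed, and with the Y-linked covariate 31 of all genes. The cause was not tested.

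Of 40 same-numbered pairs of arrays, 11 had a correlation of deviations over 0.1 (-0.1 to 0.231). Pairs of different numbers were not compared, so whether replicate numbers pair the arrays cannot be told from these values. With the replicate block the averaged Dox count was 3, with 78 of all genes called, and the wildtype tissue calls of Alox5ap and Lta4h were lost. Median centring moved the median of all genes between tissues in wildtype from 0.14 to 0.032, and in the knockout Dox contrast from -0.13 to -0.017. The number of genes called in the esophageal genotype comparison, 77, ran from 2 after quantile normalization to 858 with array weights, and no member was among them under any setting.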
